A study of Mus musculus with 12 samples.

Results

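*Pou5f1*, *Nanog*, *Esrrb*, *Zfp42*, *Tfcp2l1*, *Nr0b1*, *Nr5a2*, *Tbx3*, *Sall4* and *Prdm14* are transcription factors and chromatin regulators of the pluripotent state of mouse embryonic stem (ES) cells. These 10 genes, of 34836 gene names on the array, were read through every probe that carries their name, which gave 17 of 55681 probes. The data are one-colour Agilent arrays of 12 RNA samples, 3 for each of 4 groups, taken at day 4. Sox7+/- ES cells and Sox7-/- ES cells were grown without dexamethasone (Dex), and Sox7+/- XEN-like cells and Sox7-/- XEN-like cells were grown with Dex. In the Sox7+/- cells 1 allele of *Sox7*, a Sox factor of primitive endoderm, carries the targeted deletion, and in the Sox7-/- cells both alleles do. All 4 groups are of the EB3 ES line, were kept with LIF, and carry Gata6GR, a fusion of Gata6 with the ligand-binding domain of the human glucocorticoid receptor that acts in the nucleus when Dex is added. The transgene is expressed from the ubiquitous CAG promoter. The null cells come from the heterozygous clone by selection with a high dose of puromycin, so each genotype stands for clonal lines and there is no wild-type group. The sources do not say that replicates were separate cultures. The source field of all 3 Sox7+/- ES arrays names replicate 1, although their titles number them from 1 to 3, so p-values measure a spread that may be technical.

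Pluripotency in the mouse rests on a network in which the core factors Oct3/4 (the product of *Pou5f1*), Sox2 and Nanog act with a set of factors that mark the naive state, the state of ES cells kept in LIF. Gata6 starts the primitive endoderm programme in the blastocyst, and Gata6 and Nanog mark opposite fates in the inner cell mass. XEN cells are the cultured cells of the extraembryonic endoderm lineage. The comparison made here is how completely each factor went down with Dex when *Sox7* was present on 1 allele or absent.

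Signals are given as relative signal, the background-subtracted signal of a probe divided by the 75th percentile of its array, and differences are on the log2 scale. A probe was called where the Benjamini-Hochberg adjusted p of limma was under 0.05 and the change was over 2-fold. The 75th percentile lay between 251.85 and 413.77 intensity units and 41.71% to 52.28% of the spots were well above background. *Sox7* itself had a relative signal of 2.189 to 2.299 in Sox7+/- ES cells and 4.91 to 6.896 in Sox7+/- XEN-like cells, and was not well above background on any of the 6 Sox7-/- arrays. Of 9 primitive endoderm markers, 7 were called higher with Dex in each genotype, where 10.9% (Sox7+/-) and 14.5% (Sox7-/-) of all tested probes were. The arrays came from 2 slides. All Sox7-/- ES cells and replicate 1 of the Sox7-/- XEN-like cells were on slide 1, and the remaining 8 arrays were on slide 2. Sox7+/- XEN-like replicate 3 stood apart from the rest of its group, with correlations of 0.9827 and 0.9823 across probes with replicates 1 and 2, against 0.9938 between those.

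The probes decide what can be read of a gene, and those that shape the results are shown first. *Nanog* has 3 probes within the locus on chromosome 6 of mm9, *Esrrb* 2 on chromosome 12, and *Pou5f1* 1 on chromosome 17. No annotation of that build was used, so exon and UTR positions are not given. In the lines below, capitals mark bases that the probe shares, as a run of at least 20, with a probe of another gene on the same array.
Pou5f1 probe (chr17:35647280-35647340, plus strand): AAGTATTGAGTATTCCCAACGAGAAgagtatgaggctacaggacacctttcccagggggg
Nanog probe 3 (chr6:122663514-122663573, plus strand): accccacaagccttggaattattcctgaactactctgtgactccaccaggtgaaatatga
Nanog probe 2 (chr6:122663676-122663735, plus strand), bases 21 to 50: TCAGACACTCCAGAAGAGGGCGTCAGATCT
Esrrb probe 1 (chr12:87862509-87862568, plus strand), first 30 bases: catgccctgggattatctcccatccagtcc
Esrrb probe 2 (chr12:87856069-87856128, plus strand), first 30 bases: caaaggacattgattattgctaaaggttag
The *Pou5f1* probe has 60 bases in an interval that the array annotation gives as 61, and shares bases 1 to 25 with a probe of *Gm5712*. That probe moved in the same direction, from 2.97 to 3.3 in Sox7+/- ES cells to 0.0836 to 0.317 in Sox7+/- XEN-like cells. *Nanog* probe 2 shares bases 1 to 50 with parts of probes of 13 other genes, and the part of these genes in its signal was not tested. *Nanog* probe 3 and the brightest *Nanog* probe, probe 1 (chr6:122664590-122664649, plus strand), share no such run, nor does either *Esrrb* probe. Of the 17 probes, 15 were free of such runs.

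With Dex, 8 of the 10 genes were called lower in Sox7+/- cells, where 14% of the 25940 tested probes were called lower, and 9 of 10 in Sox7-/- cells, where 14.3% were. All 17 probes of the 10 genes passed the filter on dim signals. *Nanog* fell at least 500.3-fold in Sox7+/- cells and at least 1335-fold in Sox7-/- cells, and *Esrrb* 459-fold in Sox7+/- cells. *Tbx3* fell far less, and *Sall4* was not called in either genotype. The median change over the 10 genes was -4.71 in Sox7+/- cells and -4.69 in Sox7-/- cells, against 0.15 and 0.07 over all tested probes. In bulk RNA, fewer cells with a transcript and less transcript per cell cannot be told apart.

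**Figure D1:**
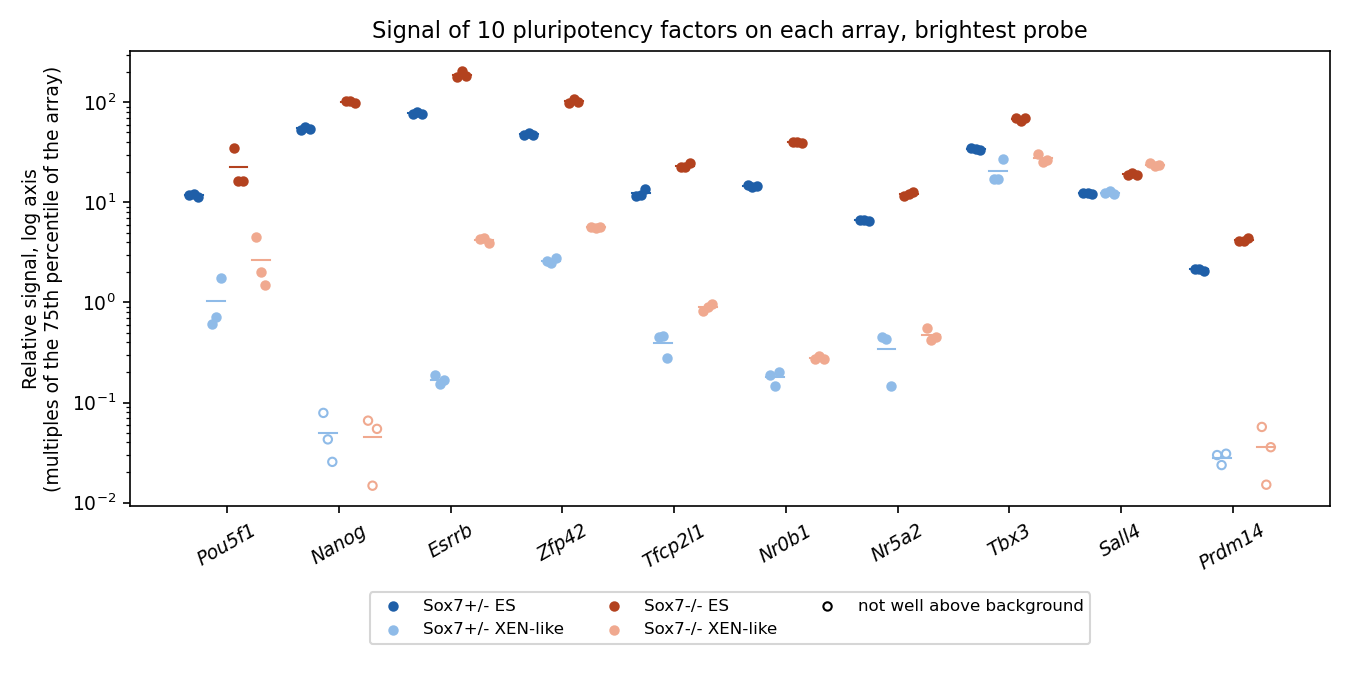
Relative signal (multiples of the 75th percentile of the array, log axis) of the brightest probe of each of the 10 factors on each of the 12 arrays, with 3 points and their mean as a line for each group. Open points are arrays on which the probe was not well above background, which for *Nanog* and *Prdm14* are all 6 XEN-like arrays.

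Of the core factors, *Nanog*, a homeodomain factor, was no longer measurable with Dex. Probe 1 read 53.44, 56.86 and 54.18 in Sox7+/- ES cells and 103.4, 102.4 and 98.67 in Sox7-/- ES cells. It read 0.0255 to 0.0787 in the Sox7+/- XEN-like cells and 0.0148 to 0.0659 in the Sox7-/- XEN-like cells, none of them well above background. A bound was therefore set against the lowest signal well above background on each XEN-like array, and at most 0.20% of the ES signal was left in Sox7+/- cells and at most 0.0749% in Sox7-/- cells. The second bound is lower where the ES signal was higher, and does not order the genotypes.

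*Nanog* probe 3 gave the same picture with less signal, from 4.66 to 5.148 in Sox7+/- ES cells and 9.435 to 11.21 in Sox7-/- ES cells to background in all XEN-like arrays, a fall of at least 44.5-fold and at least 133-fold. Probe 2 went the other way. It rose from 0.4587, 0.5531 and 0.4822 to 0.8773, 1.053 and 1.073 in Sox7+/- cells, which was 2.01-fold and called (log2 difference 1.01, SE 0.19, adjusted p = 8.88e-04). In Sox7-/- cells it read 0.5862 to 0.8235 before and 0.8427 to 1.374 after Dex, and the difference of 0.69 was under 2-fold. This is the probe whose capitals above show bases shared with other genes, and it is the dimmest of the 3 in ES cells.

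*Pou5f1* went down to a level that stayed measurable on every array. Its relative signal was 11.87, 12.04 and 11.37 in Sox7+/- ES cells and 0.6129, 0.715 and 1.774 in Sox7+/- XEN-like cells, of which replicate 3 was the highest. The Sox7-/- values were 35.33, 16.45 and 16.24 before Dex and 4.464, 2.018 and 1.487 after, with replicate 1 the highest in both groups. No ES array overlapped a XEN-like array. The share left was 7.82% in Sox7+/- cells (95% interval 3.68% to 16.6%) and 11.2% in Sox7-/- cells (5.28% to 23.9%). The spread of *Pou5f1* was wide, with an SD of 0.64 to 0.83 on the log2 scale in 3 groups, against 0.04 in Sox7+/- ES cells. Without replicate 1 of both Sox7-/- groups, the change in Sox7-/- cells was -3.24, against -3.15 with it. Over leaving out each array it was -3.61 to -2.78. With the slide as a block, which leaves the Sox7-/- response to the slide 1 XEN-like array, it was -2.24.

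*Sall4*, a zinc finger factor of ES cells that is also made in the extraembryonic endoderm, kept its signal. Probe 1 read 12.52, 12.29 and 12.18 in Sox7+/- ES cells and 12.4, 12.86 and 12.14 in Sox7+/- XEN-like cells, and these groups overlapped. The difference of 0.02 (95% interval -0.11 to 0.15) had an adjusted p of 0.83, and it turned negative, -0.49 to -0.09, with each of the other scalings and with normexp. In Sox7-/- cells probe 1 read 18.58, 19.51 and 19.0 and then 24.88, 23.24 and 23.54, a rise of 0.33 (SE 0.06, adjusted p = 5.7e-04) that is 1.25-fold and below the fold asked for a call. Probes 2 and 3 differed by 0.22 and -0.29 in Sox7+/- cells and by 0.40 each in Sox7-/- cells.

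Of the naive factors, *Esrrb*, an orphan nuclear receptor that binds with Oct3/4 and Nanog at many of their sites, was the member whose response differed most between the genotypes. Probe 1 read 76.02, 80.14 and 76.67 in Sox7+/- ES cells and fell to 0.1863, 0.1544 and 0.1683 after Dex. The null cells went from 179.9, 203.6 and 181.8 to 4.308, 4.358 and 3.925. The groups are far apart, and all 6 XEN-like values were well above background. The share of the ES signal left was 0.218% (0.191% to 0.249%) in Sox7+/- cells and 2.23% (1.95% to 2.55%) in Sox7-/- cells, a ratio of 10.2 (95% interval 8.47 to 12.3). The difference between genotypes in the Dex response was 3.35 (SE 0.12, adjusted p = 1.45e-07). Over leaving out each array it was 3.29 to 3.42. With the slide as a block, which leaves the Sox7-/- response to the slide 1 XEN-like array, it was 3.39. It was 3.54 with quantile normalization and 3.75 with spike-in scaling, but 2.11 with normexp and 2.67 from the deposited table. The Sox7+/- XEN-like signals were 42.26 to 49.62 intensity units, and the lowest signal well above background on those arrays was 25.42 to 30.89. The size of the ratio therefore varied with the processing.

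*Esrrb* probe 2, which lies 5′ of probe 1 at the same locus, did not show this difference between the genotypes. It was dim, 0.3084 to 0.3708 in Sox7+/- ES cells and 0.3302 to 0.4341 in Sox7-/- ES cells, and not well above background on any XEN-like array, so it gives a fall of at least 2.995-fold and at least 5.094-fold. Its fitted difference between genotypes was -0.67 (adjusted p = 0.0379), below the fold for a call and resting on values at background. The difference between genotypes was therefore seen with 1 of 2 *Esrrb* probes, and probe 2 was too dim to test it. Its bounds on the share left, at most 33.4% in Sox7+/- and 19.6% in Sox7-/- cells, lie above both shares of probe 1.

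The nuclear receptors *Nr0b1* (Dax1), which lacks the usual DNA-binding domain and acts as a corepressor, and *Nr5a2* (Lrh1), which can take the place of Oct3/4 in reprogramming, both went down in each genotype. *Nr0b1*, with 10 spots per array, read 14.96, 14.42 and 14.44 in Sox7+/- ES cells and 0.1876, 0.1463 and 0.2014 in Sox7+/- XEN-like cells. Its null values were 40.61, 40.45 and 39.0 before and 0.275, 0.2892 and 0.27 after Dex. The share left, 1.21% (1.03% to 1.42%) and 0.695% (0.591% to 0.817%), was smaller in the null cells, opposite to *Esrrb*. The difference of -0.80 (SE 0.15, adjusted p = 0.00331) was under 2-fold. Over the alternatives it ranged from -1.23 with normexp, where it was called, to -0.40, with adjusted p up to 0.164. With the slide as a block, which leaves the Sox7-/- response to the slide 1 XEN-like array, it was -0.82. Like those of *Esrrb*, the Sox7+/- XEN-like signals of *Nr0b1* were low, 40.04 to 50.71 intensity units. The lowest signal well above background on those arrays was 25.42 to 30.89. *Nr5a2* read 6.522 to 6.737 and 11.63 to 12.71 in ES cells, and 0.1457 to 0.4515 and 0.4201 to 0.5613 in XEN-like cells, with the lowest value in Sox7+/- XEN-like replicate 3. Its shares of 4.63% (2.68% to 7.98%) and 3.90% (2.26% to 6.73%) did not pass the test of a difference (-0.25, 95% interval -1.36 to 0.87, adjusted p = 0.752). The dimmer *Nr5a2* probe 2 was called lower in both genotypes as well.

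*Zfp42* (Rex1), a zinc finger gene used as a reporter of the naive state, kept the same small share in both genotypes. It read 47.14, 49.87 and 47.02 in Sox7+/- ES cells and 2.617, 2.461 and 2.76 in Sox7+/- XEN-like cells. The null cells read 97.78, 108.5 and 100.1 before and 5.654, 5.521 and 5.705 after Dex, about 2-fold higher at both stages. The shares were 5.44% (4.89% to 6.04%) and 5.51% (4.96% to 6.13%), and the difference in response was 0.02 with a 95% interval of -0.20 to 0.24. This is the narrowest such interval after that of *Sall4* among the brightest probes.

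*Tfcp2l1*, a CP2-family factor downstream of LIF and Stat3, read 11.64 to 13.47 and 22.43 to 24.75 in ES cells, and 0.2765 to 0.4673 and 0.8137 to 0.9725 in XEN-like cells. The share left was 3.15% (2.40% to 4.14%) in Sox7+/- cells and 3.85% (2.93% to 5.05%) in Sox7-/- cells, and both *Tfcp2l1* probes fell in both genotypes. *Prdm14*, a PR-domain regulator that holds down Fgf signalling and DNA methylation in naive cells, read 2.165, 2.164 and 2.085 in Sox7+/- ES cells and 4.149, 4.102 and 4.448 in Sox7-/- ES cells. It was not well above background on any XEN-like array, which bounds its fall at 19.51-fold or more in Sox7+/- cells and 55.64-fold or more in Sox7-/- cells. At most 5.13% and 1.80% of its ES signal was left.

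*Tbx3*, a T-box factor that supports self-renewal under LIF and is also tied to extraembryonic endoderm, lost the least among the genes that went down. It read 34.78, 34.26 and 33.6 in Sox7+/- ES cells and 17.29, 17.27 and 26.85 in Sox7+/- XEN-like cells, with replicate 3 the highest. The null cells read 69.75, 64.95 and 69.48 before and 30.53, 25.51 and 26.51 after Dex. The change in Sox7+/- cells, -0.77 (SE 0.15, adjusted p = 0.0014), missed the 2-fold mark, and that in Sox7-/- cells, -1.31 (SE 0.15, adjusted p = 2.86e-05), passed it. The difference between these changes was -0.54 (adjusted p = 0.0944), so the genotypes were not shown to differ. The Sox7+/- change just reached the 2-fold mark and was called after quantile normalization (adjusted p = 1.24e-04). It was called as well from the deposited table (-1.24) and from values scaled to the spike-in controls (-1.26).

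**Figure D2:**
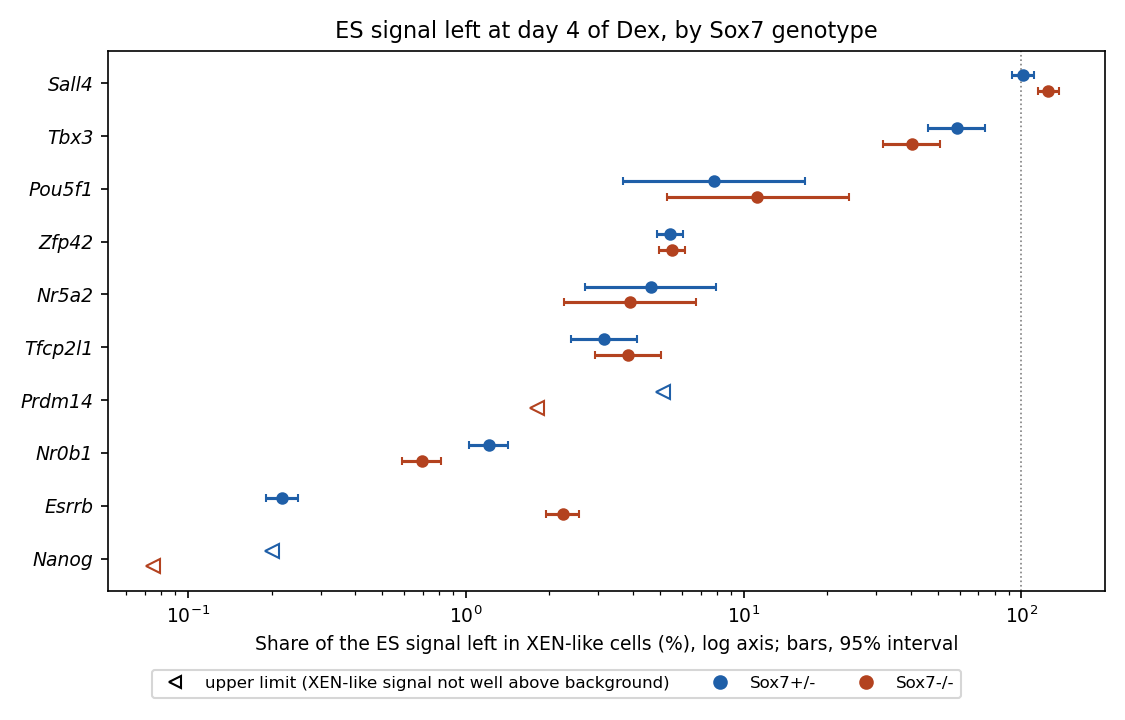
Share of the ES signal left in XEN-like cells at day 4 of Dex (percent, log axis) for the brightest probe of each factor in Sox7+/- (blue) and Sox7-/- (red) cells, with 95% intervals, and triangles as upper limits where no XEN-like array was well above background. *Esrrb* is the gene whose intervals lie furthest apart, 0.218% against 2.23%, and *Sall4* lies at 100% or above.

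Set in order, the shares left in Sox7+/- cells fell into steps. *Nanog* and *Esrrb* were lowest, and the bound of *Nanog* does not separate it from *Esrrb*. *Nr0b1* came next, with an interval that met no neighbour. The intervals of *Tfcp2l1*, *Nr5a2*, *Zfp42* and *Pou5f1* overlapped from each gene to the next, so their order between neighbours is not settled, although the interval of *Tfcp2l1* lay below that of *Zfp42*. *Prdm14* cannot be placed below its bound of 5.13%. *Tbx3* and *Sall4* stood apart at 58.5% (46.2% to 74.2%) and 101% (92.4% to 111%). In Sox7-/- cells the order was the same except that *Esrrb* (1.95% to 2.55%) lay above *Nr0b1* and above the bound of *Prdm14* (1.80%). The intervals of *Tfcp2l1* (2.93% to 5.05%) and *Zfp42* (4.96% to 6.13%) overlapped there. *Tbx3* and *Sall4* were at 40.3% (31.8% to 51.1%) and 125% (115% to 137%).

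Across the 10 genes the difference between genotypes in the response was called for 1, *Esrrb*, which is higher in the null cells, where 6.64% of tested probes were called in that direction and 3.16% in the other. By adjusted p alone *Nr0b1* (-0.80) and *Sall4* (0.31, adjusted p = 0.0187) also passed. Over all 17 probes, *Nanog* probe 3 was called as well (adjusted p = 2.16e-04), but both XEN-like groups were at background, so its fitted difference is not a measured difference in response. Counted by probe, the Dex response was 12 lower, 1 higher and 4 not called in Sox7+/- cells, and 13 lower and 4 not called in Sox7-/- cells.

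**Figure D3:**
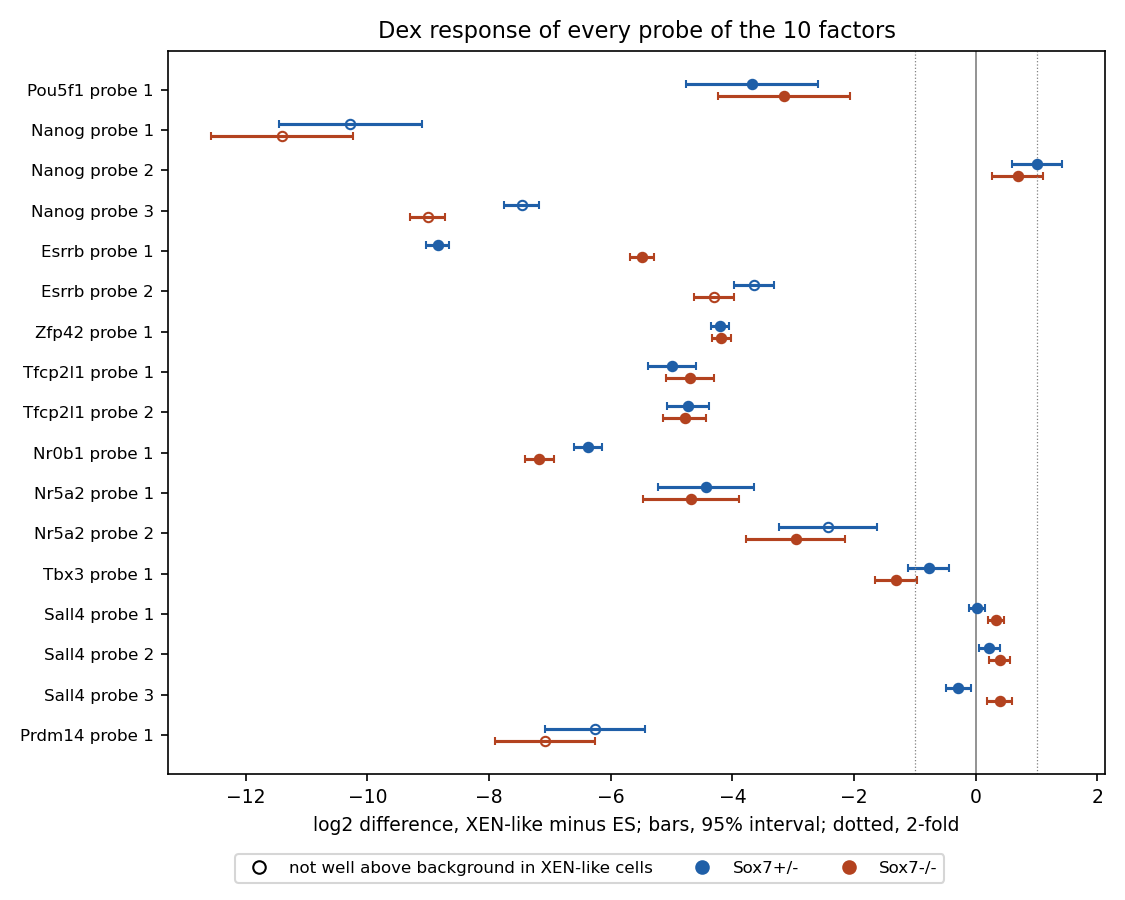
Log2 difference between XEN-like and ES cells for each of the 17 probes in Sox7+/- (blue) and Sox7-/- (red) cells, with 95% intervals and dotted lines at 2-fold, where open points had no XEN-like array well above background. *Nanog* probe 2 lies right of 0 while probes 1 and 3 lie below -7, and *Esrrb* probe 1 has its red point furthest to the right of its blue one.

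In XEN-like cells, 3 of the 10 genes were called higher in the null cells than in the heterozygous cells and none was called lower, where 3.87% of tested probes were called higher and 3.64% lower. *Esrrb* differed by 4.63 (SE 0.09, adjusted p = 1.62e-09), which is 24.8-fold, *Tfcp2l1* by 1.21 (SE 0.18, adjusted p = 7.06e-04) and *Zfp42* by 1.11 (SE 0.07, adjusted p = 2.8e-06). On slide 2 alone the *Esrrb* difference was 4.61 (adjusted p = 5.08e-08), and that of *Zfp42* 1.11 and of *Tfcp2l1* 1.28. The *Esrrb* difference was 3.362 with normexp, 3.923 from the deposited table and 4.875 with spike-in scaling. Without Sox7+/- XEN-like replicate 3, *Tfcp2l1* was at 0.97, just under 2-fold. It was also under 2-fold with normexp (0.77) and by its probe 2 (0.60, adjusted p = 0.0147). *Sall4* was higher by 0.94 (adjusted p = 2.84e-06) on probe 1, by 0.42 on probe 3 and by 0.12 (adjusted p = 0.274) on probe 2. *Pou5f1* was higher by 1.37 (SE 0.49, adjusted p = 0.0534), and its groups overlapped. Its side of the threshold varied with the arrays and the processing. *Pou5f1* passed without Sox7+/- XEN-like replicate 3 (1.84, adjusted p = 0.0129), without Sox7-/- XEN-like replicate 3 (1.71, adjusted p = 0.0375) or without Sox7-/- ES replicate 1 (1.37, adjusted p = 0.0462). With all arrays it passed with normexp (1.11), spike-in scaling (1.61), the deposited table (1.53, adjusted p = 2.27e-06), the filter on all 12 arrays and the intensity trend (both 1.37). The median of all tested probes also moved, from 0.002 to 0.246 with spike-in scaling and 0.338 with the deposited table. Less that median, *Pou5f1* was at 1.367 in the main fit and 1.192 with the deposited table. Spike-in scaling shifts all probes of an array alike, so it gives 1.367 again by construction. With the null cells taken from their slide 1 array alone, the *Pou5f1* difference was 2.28. On slide 2 alone it was 0.91 (limma adjusted p = 0.179), under 2-fold and not called. Every null array was above every heterozygous array for 5 of the 10 genes, where 24.8% of tested probes did this.

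Markers of other lineages moved in the same comparison. Of 7 tested trophectoderm markers, 4 were called higher in the null XEN-like cells. *Eomes* (1.89, SE 0.09) and *Gata3* (1.22, SE 0.20) were well above background on all XEN-like arrays. *Cdx2* was well above background on the 3 null arrays (0.0844 to 0.124) and on none of the heterozygous ones, and no fold over 1 can be bounded for it. *Hand1* was at background in both groups, so its call rests on no measured level. The difference in the Dex response was called for 5, which were these 4 and *Krt7*, and of these *Cdx2* and *Hand1* again rest on values at background. In Sox7+/- XEN-like cells *Krt7* was well above background on replicate 1 only (0.144), so its difference rests in part on such values. The summed relative signal of the 8 markers on the array was 5.435 to 5.995 in Sox7+/- XEN-like cells and 10.28 to 10.84 in Sox7-/- XEN-like cells. *Elf5* was at background in all groups. *Esrrb* and *Eomes* are both known in trophoblast stem cells, and the part of such cells in the *Esrrb* result was not tested. Of 6 primed epiblast markers none was called in this comparison, with summed signals of 43.8 to 60.77 and 29.64 to 32.29. *Dnmt3b* made up most of these sums (42 to 59.9 and 28.1 to 31). Of 6 primordial germ cell markers 1, *Dnd1*, was called higher, with summed signals of 10.02 to 16.78 and 20.13 to 22.29.

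Before Dex, all 10 genes were higher in Sox7-/- ES cells, by 0.63 to 1.45, with a median of 0.95 against 0.10 over all tested probes. For each of the 10, every null array was above every heterozygous array, where 40.5% of tested probes did this. Of the 10 genes 3 were called higher, where 1.94% of tested probes were called higher and 6.67% lower, and 6 had an adjusted p under 0.05. The called genes were *Nr0b1* (1.45, SE 0.11, adjusted p = 4.75e-06), *Esrrb* (1.28, SE 0.09) and *Zfp42* (1.09, SE 0.07). *Zfp42* fell short of 2-fold after quantile normalization (0.86) or when scaled to the spike-in controls (0.93), and *Esrrb* was at 0.24 (adjusted p = 0.21) by its probe 2. *Tbx3* was at 0.99 (adjusted p = 6.41e-04) and *Tfcp2l1* at 0.92 (adjusted p = 0.00218), just under 2-fold. *Sall4* probe 1 was 0.63 higher, but its probes 2 and 3 were at -0.06 and -0.26.

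For *Nanog*, *Nr5a2*, *Prdm14* and *Pou5f1* the adjusted p was 0.0511 to 0.194. The estimate of the spread in that fit is shared with the XEN-like arrays, on which *Nanog* and *Prdm14* were at background and *Pou5f1* and *Nr5a2* had an SD of up to 0.83 and 0.93 on the log2 scale. In a fit of the ES arrays alone *Nanog* by its probe 1 (0.89, adjusted p = 1.35e-04), *Nr5a2* (0.87, adjusted p = 1.66e-04) and *Prdm14* (0.98, adjusted p = 1.1e-04) passed the p, still under 2-fold, and *Pou5f1* did not (adjusted p = 0.0579). *Nanog* probe 3 was called higher in the fit of all arrays (1.05, SE 0.13, adjusted p = 1.59e-04, 2.07-fold), and probe 2 was at 0.43 (adjusted p = 0.0872). All Sox7-/- ES arrays were on slide 1 and all Sox7+/- ES arrays on slide 2, so slide and genotype can be separated only through the Sox7-/- XEN-like cells. With the slide as a block, 7 of the 10 genes were still higher and *Nr0b1* (1.48), *Esrrb* (1.22) and *Zfp42* (1.08) were still called. *Pou5f1* (-0.52), *Nanog* (-0.33) and *Prdm14* (-0.31) turned negative with adjusted p of 0.7 to 0.844. For *Nanog* and *Prdm14* the slide term rests on Sox7-/- XEN-like arrays that were all at background, so their change of sign cannot say whether the slide mattered. For *Pou5f1* it rests on replicate 1 of those arrays (4.464) against the others (2.018 and 1.487).

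**Figure D4:**
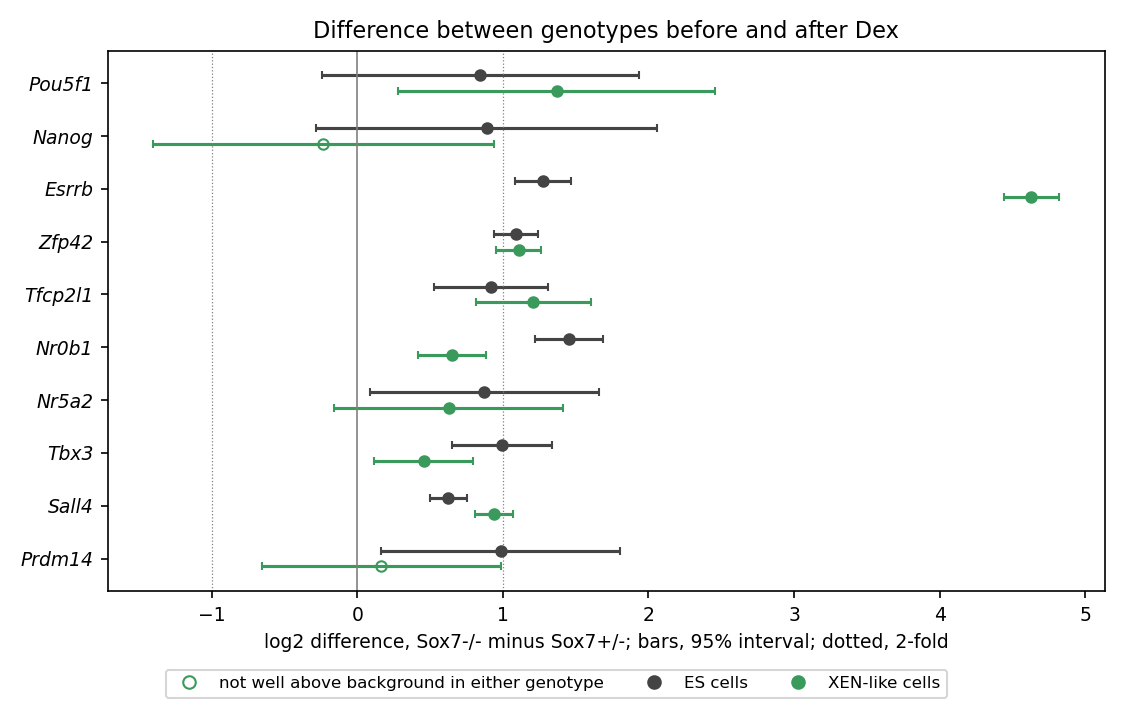
Log2 difference between Sox7-/- and Sox7+/- cells for the brightest probe of each factor in ES cells (grey) and XEN-like cells (green), with 95% intervals and dotted lines at 2-fold. All 10 grey points lie right of 0, between 0.63 and 1.45, and the green point of *Esrrb* lies apart at 4.63.

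Other lineages were also not equal between the ES groups. *Fgf5* (-2.39) and *Pou3f1* (-2.68), markers of the primed epiblast, were called lower in Sox7-/- ES cells, 2 of 6 such markers. The summed signal of the 6 was 128.4 to 133.1 in Sox7+/- and 100 to 104.7 in Sox7-/- ES cells, most of it from *Dnmt3b* (90.4 to 94.1 and 78.1 to 83.9). Of 7 trophectoderm markers 4 were called lower, and the summed signal went from 7.499 to 7.644 down to 5.156 to 5.466. Of 9 primitive endoderm markers only *Sox7* was called, and the sums were 399.3 to 414.4 and 301.3 to 331.8. The part of these lineages in the higher signals of the 10 factors was not tested.

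The wider network was read through 24 other pluripotency genes. In Sox7+/- cells 12 were called lower and 1 higher with Dex, and in Sox7-/- cells 15 lower and 1 higher. Of all tested probes, 14% and 14.3% were called lower and 10.9% and 14.5% higher. The medians of the 24 were -0.96 and -1.54. *Sox2*, the partner of Oct3/4, went from 8.16 to 8.88 in Sox7+/- ES cells and 11.7 to 12.8 in Sox7-/- ES cells to background on all XEN-like arrays. *Klf4*, a zinc finger factor that can hold ES cells in the naive state, was the gene called higher in Sox7+/- cells (1.45), and *Mycn* in Sox7-/- cells (1.19). The difference between genotypes in the response was called for 5 of the 24, where 6.64% of tested probes were called higher and 3.16% lower. *Tcl1*, a coactivator of Akt, was called higher in the null response, and *Klf2* (-2.09), *Tdgf1* (-1.09), *Gbx2* and *Sox2* were called lower. *Gbx2* and *Sox2* were at background in all XEN-like arrays, so only the falls of at least 6.278-fold and 28.27-fold for *Gbx2* and of at least 77.65-fold and 161.8-fold for *Sox2* can be given, which do not order the genotypes. *Tcl1* read 30.4 to 33.6 and 71.4 to 76.1 in ES cells, was at background in all Sox7+/- XEN-like arrays, and read 0.569 to 0.839 in Sox7-/- XEN-like cells. At most 0.347% of its ES signal was left in Sox7+/- cells and 0.982% in Sox7-/- cells, a ratio of at least 2.83 (adjusted p of the fitted difference = 1.37e-06).

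The genes whose pattern over the 12 arrays was most like that of a member were ranked by Pearson's r of log2 signal over 13170 genes. As the arrays fall into 4 groups, r mostly reflects the group means. For *Esrrb* they were *Gtsf1l* (0.9979), *Tcl1* (0.9979) and *Dppa4* (0.9963). *Dppa4* was higher in Sox7-/- XEN-like cells too (1.30, SE 0.10, adjusted p = 9.81e-06). For *Nanog* they were *C77370* (0.9979), *Dtx3l* (0.9961) and *Adamts4* (0.996), and for *Pou5f1* *Rab23* (0.9875), *Ass1* (0.9802) and *Col16a1* (0.9759).

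Since the factors are known to act at each other's promoters, RefSeq promoters of GRCm38.p6, from 250 bases before to 50 bases after the start of transcription, were searched on both strands for 5 short motifs. Of the 10 members 7 have an entry (*Pou5f1*, *Nanog*, *Esrrb*, *Zfp42*, *Tfcp2l1*, *Nr0b1* and *Nr5a2*), some with 2 start sites. The motifs were the octamer ATTTGCAT, the Sox motif CATTGT, the Esrrb and Nr5a2 motif TCAAGGTCA, the Klf motif GGGTGTGGC and the Gata motif AGATAA. The 250 bases before the first start site of *Nanog*, which holds the Sox motif, and of *Zfp42*, the member that holds the octamer, are shown with the match in capitals.
Nanog (chr6:122707239-122707488, plus strand): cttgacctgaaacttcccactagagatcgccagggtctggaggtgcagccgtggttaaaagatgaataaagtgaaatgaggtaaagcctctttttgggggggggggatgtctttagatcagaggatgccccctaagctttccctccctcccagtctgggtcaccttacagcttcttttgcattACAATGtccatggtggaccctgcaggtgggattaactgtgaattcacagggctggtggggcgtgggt
Zfp42 (chr8:43307010-43307259, minus strand): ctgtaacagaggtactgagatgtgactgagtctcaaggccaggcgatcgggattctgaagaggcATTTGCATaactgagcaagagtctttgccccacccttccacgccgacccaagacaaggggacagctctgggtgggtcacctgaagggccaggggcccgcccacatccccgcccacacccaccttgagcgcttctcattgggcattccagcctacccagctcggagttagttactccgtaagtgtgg
The *Nanog* match lies on the opposite strand and begins at position -67 from the start site, and the *Zfp42* match begins at -186. A Sox motif was also found at the second *Pou5f1* start site (-158) and at the first of *Esrrb* (33), and *Nr5a2* holds 2 Gata motifs (-217 and -200). No member promoter holds the Esrrb and Nr5a2 motif or the Klf motif, and *Tfcp2l1* and *Nr0b1* hold none of the 5. Of 32851 promoters of this length, 1.74% hold the octamer, 12.6% the Sox motif, 0.423% the Esrrb and Nr5a2 motif, 1.35% the Klf motif and 11.2% the Gata motif. Genes with and without a match fell with Dex, and a match describes the sequence only.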

How the data were processed

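RNA of 4 groups of ES and XEN-like cells, 3 arrays each, was hybridized by the authors to one-colour SurePrint G3 mouse 8x60K arrays. The authors deposited the scanner output of Agilent Feature Extraction 10.7.3.1 for each array, whose processed intensity is background-subtracted but not scaled between arrays. They also deposited a table of intensity values for all arrays, whose values differ from the mean signal of the spots by at most 0.498% and so carry no background subtraction or scaling. Probe positions are those of the scanner files, on mm9. No column of values lacked a sample.

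The log2 of the deposited processed intensity was centred on its 75th percentile within each array. Spots of a probe were averaged, and 139 to 190 spots per array flagged as outliers were left out. No spot was saturated. Of 55681 probes, the 25940 that some group had well above background in all of its 3 arrays were fitted in limma 3.58.1 (R 4.3.3), with 1 mean for each of the 4 groups (prior degrees of freedom 1.991), for 5 comparisons. The procedure was tested on simulated data. A gene was read by its brightest probe and every probe is reported. Where a probe was not well above background on any array of a group, a bound was computed from the lowest signal well above background on each of those arrays. Arrays have no read depth, and their number limits the precision. The members, gene lists, motifs and tests were chosen with earlier results of these data known. By rule the text names all members, genes of the lists called in the difference between genotypes, and the 3 genes most like *Pou5f1*, *Nanog* and *Esrrb*; other list genes were named after their values were seen.

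The alternatives were quantile normalization, normexp (offset 50), centring on the median probe, scaling to 7 spike-in controls, the deposited table, other filters on dim probes, no minimum fold, an intensity trend, a replicate block, a slide block, the arrays compared only, other probes of a gene and leaving out each array. Leaving out replicate 1 of both Sox7-/- groups was added after seeing the data. Replicate numbers did not pair samples (correlations of deviations -0.0508 to 0.126). Promoter and probe sequences came from RefSeq (GRCm38.p6) and the scanner files. Experiments of the study other than the arrays were not analysed here.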

Additional observations from a re-analysis of the deposited data

Results flagged for a closer look

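The Dex response of *Esrrb*, read by probe 1, differed between the genotypes by 3.353 (log2, Sox7-/- minus Sox7+/-; limma adjusted p = 1.45e-07), with all 3 Sox7-/- XEN-like arrays (3.925 to 4.358 relative signal) above all 3 Sox7+/- XEN-like arrays (0.1544 to 0.1863). The second *Esrrb* probe, at background in all XEN-like arrays, gave -0.669. For *Nanog* probe 3 the fit gave -1.546 (adjusted p = 2.16e-04), with every XEN-like array at background and the ES arrays at 4.66 to 5.148 and 9.435 to 11.21. A difference in its response was therefore not measured, and its falls of at least 44.5-fold and at least 133-fold do not order the genotypes. The brightest *Nanog* probe gave -1.12 with a 95% interval of -2.78 to 0.53, and *Nanog* probe 2 gave -0.32.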

How the results depend on the processing

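Of 137 counts of called members under the alternatives, 126 stayed within 1.5 times their value. Of 1360 single-gene values 1280 kept their direction and their side of the threshold, 6 lost and 34 gained a call and 40 changed sign. Many of these estimates could not move, so the totals overstate stability. The replicate block, the trend, the filters, the fold setting, the arrays compared only and the loss of an array not compared leave the estimate as it is. A gene without a further probe was read again by its brightest. The counts called lower with Dex, 8 in Sox7+/- and 9 in Sox7-/- cells, moved by less than 1.5 times under every alternative run. The median of all tested probes shifted to -0.337 (Sox7+/- Dex response) and 0.312 (difference in response) with spike-in scaling, and to -0.231 and 0.243 with the deposited table, from 0.151 and -0.089, and members should be read against it. The share of calls that were higher in the Sox7+/- Dex response went from 43.8% to 18.5% and 19.6%, and in the difference in response from 67.8% to 89.8% and 89.5%. Between genotypes in XEN-like cells it went from 51.5% to 76.6% and 89.9%. Dim probes bound what can be said of *Nanog*, *Prdm14* and *Esrrb* probe 2 in XEN-like cells.

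The difference in the Dex response, called for 1 member, was called for 4 with normexp, which added *Nanog*, *Nr0b1* and *Prdm14*. It was called for 3 with no minimum fold, 0 with the second and 2 with the probe after it, and 1 to 2 over leaving out each array. The 2 came without Sox7-/- XEN-like replicate 1, where *Prdm14* reached -1.25 (adjusted p = 0.0455). The XEN-like comparison, 3 members, gave 5 with spike-in scaling and with the deposited table, 6 with no minimum fold and 1 with the second brightest probe. With spike-in scaling and the deposited table the median of all tested probes was also higher (0.246 and 0.338, against 0.002). The ES comparison, 3 members, gave 6 with no minimum fold. The cause was not tested.

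Signs changed for small differences. The *Sall4* change in Sox7+/- cells was -0.113 with normexp, -0.188 with quantile, -0.092 with median, -0.473 with spike-in scaling, -0.49 with the deposited table, -0.287 by probe 3 and -0.008 to 0.034 over leaving out each array. Between genotypes in ES cells *Sall4* was -0.056 and -0.262 by probes 2 and 3. The slide block gave *Pou5f1* -0.519, *Nanog* -0.327 and *Prdm14* -0.31 in ES cells, for *Nanog* and *Prdm14* through a slide term set by values at background. In XEN-like cells *Prdm14* was -0.249 with normexp, -0.265 with the slide block and without replicate 1 of both Sox7-/- groups, and -0.265 to 0.693 over single arrays. *Nanog* there was 0.012 with spike-in scaling, 0.116 with the deposited table, 0.578 by the slide 1 array, 0.109 by the second probe and -0.638 to 0.441 over single arrays. The second probe gave *Nanog* Dex responses of 1.006 and 0.689, and for *Esrrb* -0.43 in XEN-like cells and -0.669 for the difference in response. That difference was also -0.153 (normexp) and -0.06 (second probe) for *Tfcp2l1*, 0.045 (slide block and slide 1 array) for *Prdm14*, -0.014 (without replicate 1 of both Sox7-/- groups) and -0.022 to 0.064 (single arrays) for *Zfp42*, and 0.001 (quantile, slide block and slide 1 array), 0.154 (spike-in scaling) and -0.782 to 0.034 (single arrays) for *Nr5a2*.

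With the replicate number as a block, the counts were 8 and 9 for the Dex responses, 3 and 3 for the genotypes in XEN-like and ES cells and 1 for the difference in response, so the block changed no count.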
